A study of Mus musculus with 3 samples.

Results

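DNA methylation in epididymal fat was compared between mice given folic acid on a high-fat diet and mice on the high-fat diet alone, peak by peak across the autosomes. The members were every autosomal peak in the 2 libraries' lists: 90352 peaks in the library with folic acid (FAD) and 130093 in the library without it (HFD), 220445 of the 332157 peaks of the series. Each FAD peak was paired with the HFD peaks it overlapped by at least 1 bp, and paired peaks were compared in width and in the rank of their score, after which the peaks without a partner were described. All mice were male C57BL/6J, the strain label being C57BL/6, were 6 weeks old at the start, spent 10 weeks on their diet and were sampled at 16 weeks. Both groups ate a diet with about 60% of its energy from fat, and FAD mice also had folic acid at 20 μg/mL in their drinking water. The third library of the series, from mice on a normal diet (ND) with about 10% of energy from fat, is set beside them. There was 1 library per diet, so no difference below has a replicate check and none was tested. The sources used here give neither the number of animals behind a library nor how deeply it was read.

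Methylated DNA immunoprecipitation sequencing (MeDIP-seq) uses an antibody against 5-methylcytosine to pull down methylated fragments, and regions where their reads pile up are called as peaks. Folic acid feeds one-carbon metabolism, which makes the methyl donor S-adenosylmethionine used by DNA methyltransferases. In mammals methylation lies mainly on cytosines followed by guanine (CpG). Most promoters rich in CpG are unmethylated in somatic tissue, with germline genes and 1 allele of imprinted genes as textbook exceptions. Whole epididymal fat holds adipocytes beside immune, vascular, stromal and mesothelial cells, so a peak cannot be assigned to a cell type, and a change in the mix of cells and a change within a cell type cannot be told apart.

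The promoters that follow are shown because they span the ways in which FAD and HFD peaks met a gene start. They run from 250 bp before to 50 bp after a transcript's start, 5′ to 3′, and come from RefSeq with build GRCm38.p6, the assembly of mm10. CpG dinucleotides are in capitals. A promoter was called covered where peaks of a library spanned at least 150 of its 300 bp. Peg3 (chr7:6730370-6730669, minus strand, 13 CpG), Plagl1 (chr10:13090582-13090881, plus strand, 26 CpG) and Piwil4 (chr9:14740623-14740922, minus strand, 11 CpG) were covered over all 300 bp in FAD, HFD and ND. Peg3 and Plagl1 are imprinted genes for zinc finger proteins, and Piwil4 encodes a germline protein of the PIWI family.
Peg3: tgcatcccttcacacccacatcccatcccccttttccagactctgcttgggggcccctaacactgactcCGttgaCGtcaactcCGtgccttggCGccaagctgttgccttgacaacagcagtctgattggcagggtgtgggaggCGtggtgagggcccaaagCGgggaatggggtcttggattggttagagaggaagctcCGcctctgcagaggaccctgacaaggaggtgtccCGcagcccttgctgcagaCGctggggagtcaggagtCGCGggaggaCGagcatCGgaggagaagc
Plagl1: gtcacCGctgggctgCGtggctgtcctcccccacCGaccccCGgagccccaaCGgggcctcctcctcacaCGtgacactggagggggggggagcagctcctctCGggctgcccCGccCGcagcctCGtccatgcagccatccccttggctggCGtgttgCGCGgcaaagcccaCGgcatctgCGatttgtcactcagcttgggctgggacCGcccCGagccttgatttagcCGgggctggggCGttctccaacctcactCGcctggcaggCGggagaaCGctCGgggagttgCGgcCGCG
Piwil4: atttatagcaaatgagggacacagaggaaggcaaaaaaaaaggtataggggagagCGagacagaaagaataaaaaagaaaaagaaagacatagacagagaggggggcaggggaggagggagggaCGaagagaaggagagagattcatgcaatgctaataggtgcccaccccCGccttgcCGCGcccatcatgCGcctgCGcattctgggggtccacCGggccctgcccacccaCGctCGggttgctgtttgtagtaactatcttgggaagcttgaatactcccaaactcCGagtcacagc
Slc12a3 (chr8:94328958-94329257, plus strand, 4 CpG) and Mvp (chr7:127014545-127014844, minus strand, 3 CpG) were covered in HFD and not in FAD. Slc12a3 encodes a sodium-chloride cotransporter and Mvp the major vault protein.
Slc12a3: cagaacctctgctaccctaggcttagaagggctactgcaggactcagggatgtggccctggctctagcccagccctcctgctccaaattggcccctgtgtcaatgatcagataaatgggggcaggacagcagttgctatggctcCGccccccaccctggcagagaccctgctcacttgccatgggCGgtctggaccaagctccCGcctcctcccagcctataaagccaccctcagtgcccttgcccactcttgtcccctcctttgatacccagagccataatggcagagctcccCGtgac
Mvp: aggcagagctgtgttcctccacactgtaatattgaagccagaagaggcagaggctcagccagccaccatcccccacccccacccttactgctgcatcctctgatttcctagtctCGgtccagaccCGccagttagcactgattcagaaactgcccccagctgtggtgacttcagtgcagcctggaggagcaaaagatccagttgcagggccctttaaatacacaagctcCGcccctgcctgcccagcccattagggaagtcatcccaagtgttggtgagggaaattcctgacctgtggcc
Lep, the gene of the adipocyte hormone leptin (chr6:29059971-29060270, plus strand, 19 CpG), was covered in FAD and in neither other library. It was chosen after its values were seen.
Lep: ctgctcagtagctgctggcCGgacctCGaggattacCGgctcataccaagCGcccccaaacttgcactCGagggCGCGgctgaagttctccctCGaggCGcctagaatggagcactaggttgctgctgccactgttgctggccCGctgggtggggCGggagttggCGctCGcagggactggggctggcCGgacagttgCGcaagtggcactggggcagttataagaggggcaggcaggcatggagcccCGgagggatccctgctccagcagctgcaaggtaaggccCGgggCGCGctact

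At Peg3 the FAD peak scored 112 over 1057 bp, the HFD peak 375 over 1502 bp and the ND peak 217 over 1721 bp, the score being the authors' own value for a peak. Within their lists these peaks ranked at the 59.7th, 94.4th and 84.2nd percentile, where 100 is the highest score. FAD therefore had the lowest-ranked of the 3 Peg3 peaks. At Piwil4 the FAD peak scored 57.8 over 562 bp, the HFD peak 144 over 605 bp and the ND peak 104 over 511 bp. Here too FAD ranked lowest, with a peak nearly as wide as that of HFD. At Plagl1 the FAD and HFD peaks were alike in rank and width, scoring 91.1 over 914 bp (rank 46.4) and 99.5 over 1018 bp (rank 49.6). The ND peak there scored 62.8 over 444 bp (rank 16.1). The Slc12a3 promoter had an HFD peak of 559 bp (score 340, rank 93.0) and an ND peak of 470 bp (score 91.8, rank 44.1) that reached over 101 of its 300 bp. No FAD peak lay within 5000 bp of that HFD peak, the nearest being 7765 bp away. Mvp shows the other way to be covered in HFD alone. Its HFD peak (chr7:127014656-127015465, 810 bp, score 112) contained a FAD peak (chr7:127014918-127015145, 228 bp, score 109), and only the wider HFD peak reached into the promoter. The Lep peak in FAD was weak, at a score of 56.1, a width of 358 bp and a rank of 7.33.

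Promoters covered in only 1 of the 2 libraries held few CpG, and most of them were covered in HFD. Of 20085 promoters of 16457 genes, 215 were covered in both libraries, 228 in HFD only and 25 in FAD only, with a median of 11, 7 and 6 CpG per promoter. The 19617 covered in neither had a median of 14. With equal-length lists, in which each library is cut to its 90352 highest-scoring peaks so that HFD has no advantage of list length, the counts were 212, 162 and 28. In those lists FAD covered 23 and HFD 69 of the 6308 promoters with 0 to 5 CpG, a ratio of 0.333 (exact 95% interval 0.198 to 0.541). The ratio was 0.542 (0.400 to 0.729) at 6 to 9 CpG, 0.811 (0.587 to 1.12) at 10 to 14 CpG and 0.869 (0.626 to 1.20) at 15 or more. The difference between the libraries was thus largest where CpG were few. ND covered 48, 116, 86 and 69 promoters in these 4 classes and lay between FAD and HFD in the first 3. Peak width moved with this result. When every peak was set to 500 bp around its midpoint the ratios were 0.933 (0.598 to 1.45), 0.817 (0.595 to 1.12), 0.969 (0.672 to 1.40) and 1.03 (0.715 to 1.49), and no interval excluded 1. When any overlap of 1 bp counted, with peaks at their own width, the ratios were 0.610 (0.467 to 0.794), 0.769 (0.607 to 0.973), 0.816 (0.604 to 1.10) and 0.948 (0.705 to 1.27), and those of the 2 classes with the fewest CpG stayed below 1. These intervals, like all in this text, cover counting error only. They treat the 2 counts as independent, although 212 promoters were covered in both libraries at equal length. An interval that includes 1 therefore does not show that the libraries were equal.

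**Figure D1:**
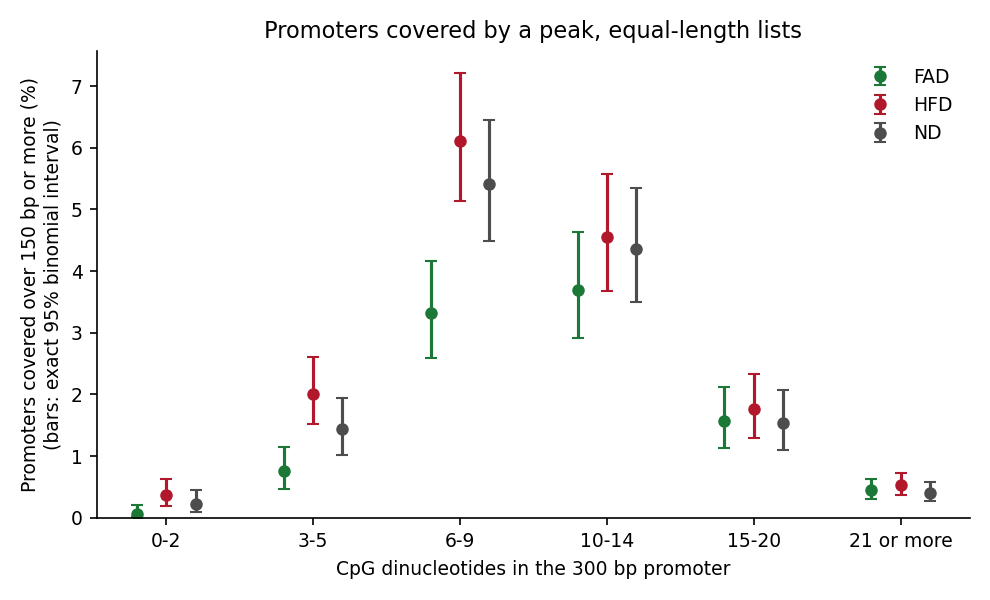
Share of RefSeq promoters (%) covered over at least 150 bp by peaks of FAD, HFD and ND, by the number of CpG in the 300 bp promoter, in equal-length lists; points are shares and bars exact 95% binomial intervals. FAD lies below HFD in the classes with few CpG (71 against 131 of 2143 promoters at 6 to 9 CpG), and the intervals stand apart at 3 to 9 CpG and overlap in the other classes.

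Nearly all strong peaks were common to both libraries. In all, 76806 FAD peaks met an HFD peak (85.0%, exact 95% interval 84.8 to 85.2%), and 75420 HFD peaks met a FAD peak (58.0%, 57.7 to 58.2%). Among the 10% of peaks that scored highest, 99.97% of FAD and 99.8% of HFD peaks were paired, against 58.6% and 21.2% in the lowest-scoring decile. The gap between the 2 directions follows from the list lengths, and lists of 1 length must give nearly equal shares. In equal-length lists, where HFD peaks scoring below 74.5 drop out while FAD peaks reach down to 50, the shares were 73.7% and 72.0%, and in the lowest decile 38.0% and 37.8%. The other library pairs gave like shares at that length, 74.3% and 73.2% for ND with HFD and 72.2% and 71.6% for FAD with ND. These 3 comparisons share libraries and are not independent of each other.

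**Figure D2:**
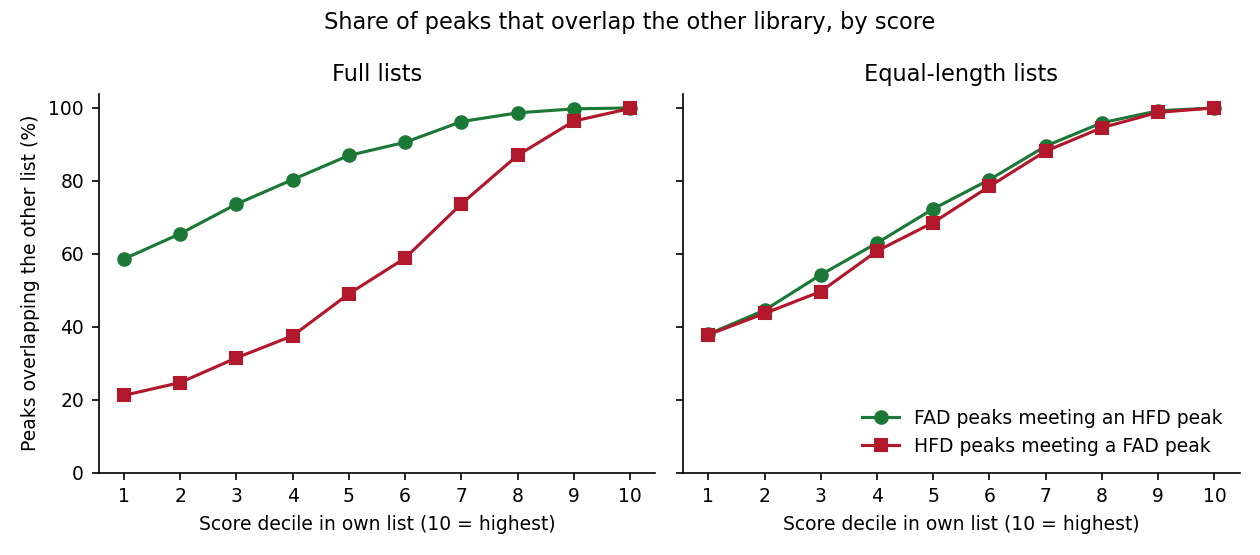
Share of FAD peaks meeting an HFD peak and of HFD peaks meeting a FAD peak (%), by decile of the score in each peak's own list (10 = highest), for full and equal-length lists. The curves lie apart in the full lists (58.6% and 21.2% in the lowest decile) and close together in equal-length lists (38.0% and 37.8%).

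Of the overlaps, 72901 were one-to-one, meaning that a FAD peak met exactly 1 HFD peak that met no other FAD peak. They held 80.7% of FAD and 56.0% of HFD peaks, and the comparisons of width and rank rest on them. FAD peaks were narrower than their HFD partners. The median width was 451 bp in FAD and 640 bp in HFD, the median of the FAD over HFD width ratio was 0.745 (95% interval over pairs 0.742 to 0.747, quartiles 0.586 and 0.891), and the FAD peak was the wider one in 11.6% of pairs. The HFD peak was at least 1.5 times as wide in 37.1% of pairs and the FAD peak in 0.646%. FAD peaks sat inside HFD peaks rather than beside them. In 67.7% of pairs the FAD peak lay wholly within the HFD peak, in 3.08% the reverse, and the midpoints were a median of 54 bp apart. The FAD peak began a median of 60 bp later and ended a median of 63 bp earlier, so the narrowing was close to even on both sides.

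Over the 62890 pairs of equal-length lists the median ratio was 0.748, a value that could move little, since a cut by score changes no peak's width and keeps most pairs. FAD peaks were the narrower ones on all 19 autosomes, from 0.729 on chromosome 19 to 0.756 on chromosome 14. By score, the ratio lay between 0.708 and 0.743 in the lower 9 deciles of HFD peaks and at 0.827 in the highest decile. By position it was 0.728 at gene ends, 0.727 elsewhere in gene records and 0.763 between genes. A gene end here is the window from 2000 bp outside to 500 bp inside a protein-coding gene record, at the 5′ end where the strand is known. A peak was placed by its midpoint. Where the strand is unknown both ends count, so a peak may lie at the 3′ end. Among genes compared by name below this holds for Hsf4, Scrib, Bcl7a, Defb12, Adgrb1, Pcyox1l, Olfr376, Rnf122, Polr3a, Gnb3, Oplah and Rtp4. It also holds for Zbtb16, Ube2v2, Depdc1b, Naaladl2, Tmem225, Klf5, Cox4i1, Mrap, Kcnq1, Ccl5, Cdh5 and Ly6a. By width, pairs whose HFD peak was 400 bp or less had a ratio of 0.910, those at 800 to 1000 bp 0.642 and those over 2000 bp 0.867. The widest and the narrowest HFD peaks thus differed least from their FAD partners in proportion. Sorting pairs by the HFD width favours low ratios at wide peaks and sorting them by the FAD width does the reverse, and by FAD width the ratio rose from 0.616 in pairs at 400 bp or less to 0.958 in those over 2000 bp. Beside these values, the ratio of ND over HFD was 0.852 and that of FAD over ND 0.887, so HFD had the widest peaks of the 3 libraries and FAD the narrowest. How far read depth or fragment length sets the width was not tested.

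**Figure D3:**
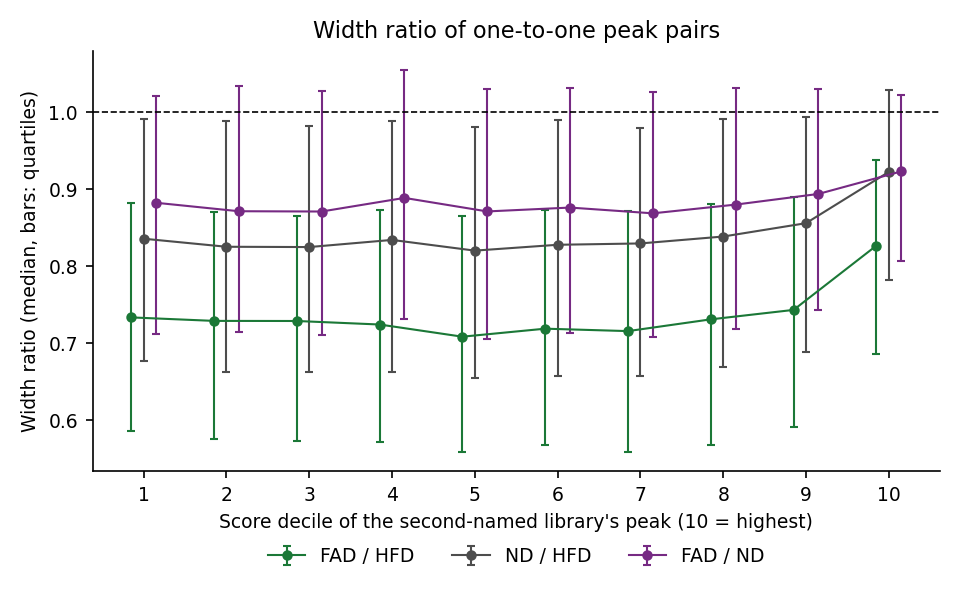
Width ratio in one-to-one pairs (median, bars from lower to upper quartile) by decile of the score of the second-named library's peak (10 = highest), for FAD over HFD, ND over HFD and FAD over ND in full lists. FAD over HFD is the lowest in every decile, with medians from 0.708 to 0.827.

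Widths were compared gene by gene among pairs at gene ends with both peaks above the 50th percentile of their lists. Hsf4, the gene of a heat shock transcription factor, had a FAD peak of 222 bp, an HFD peak of 1408 bp and an ND peak of 447 bp, and the FAD over HFD ratio of 0.158 was the lowest. Scrib, a cell polarity gene, had peaks of 278, 1378 and 591 bp in FAD, HFD and ND. Grap2, which encodes an adaptor of T cell receptor signalling, had peaks of 238, 1134 and 456 bp. In these 3 genes the ND width fell between the others. Cpt1c, the neuronal member of the carnitine palmitoyltransferase family, had peaks of 296, 1084 and 492 bp. Foxi1, a forkhead transcription factor gene, had a FAD peak of 635 bp inside an HFD peak of 2015 bp, against 746 bp in ND. Plxnb1, a semaphorin receptor gene, had peaks of 494 bp in FAD, 1649 bp in HFD and 1839 bp in ND, and so differed from the others in that ND was wide as well. Mvp, described above, and the phosphatase gene Ppm1j (283, 889 and 289 bp) completed the 8 lowest ratios, which ended at 0.318.

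Few gene-end peaks were wider in FAD, and by less. Bcl7a had peaks of 1613 bp in FAD, 969 bp in HFD and 944 bp in ND, a FAD over HFD ratio of 1.66. Arntl2, a partner gene of the circadian clock, had 571, 368 and 336 bp, and the defensin gene Defb12 695, 448 and 365 bp. In all 3 the HFD and ND widths lay close together and FAD stood above them. Scp2 and Eci3 act in peroxisomal lipid metabolism. Their FAD peaks spanned 684 and 520 bp, their HFD peaks 521 and 387 bp and their ND peaks 506 and 252 bp. Pdlim1, Morn3 and Adgrb1 had ratios of 1.44, 1.35 and 1.33.

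Score ranks scattered widely between FAD and HFD. The rank is the percentile of a peak's score within its own list. In the full lists FAD ranked at least 10 points higher in 15.8% of one-to-one pairs and at least 10 points lower in 42.6%, with a median FAD minus HFD difference of -6.38 points, but ranks from lists of unequal length show no change. Ranks in equal-length lists are centred by construction, so the balance of higher and lower pairs there says nothing of folic acid, and what can be read is the scatter and which genes and positions differ. The median difference in those lists was 0.103 points (SD over pairs 22.6, n = 62890 pairs). There FAD was higher by 10 points in 28.2% of pairs (17740) and lower in 27.7% (17391). The corresponding shares were 28.6% and 26.8% for ND against HFD and 26.3% and 27.4% for FAD against ND, with SDs of 22.2 and 21.9 points, so the scatter of ranks between FAD and HFD was close to that in the other pairs of libraries. Across the 62890 pairs the FAD and HFD ranks correlated with a Spearman coefficient of 0.647, given as a description, since peaks of 1 library share its depth. The rank difference and the width ratio were nearly unrelated across pairs (Spearman coefficient -0.0722). Because the equal-length HFD list ends at a higher score, a given score ranks lower there in HFD than in FAD. Among the genes named below, the differences of Plagl1, Gnmt, Mmab and Tnp1 are above 0 in equal-length lists and below 0 in full lists, and so have no settled direction.

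**Figure D4:**
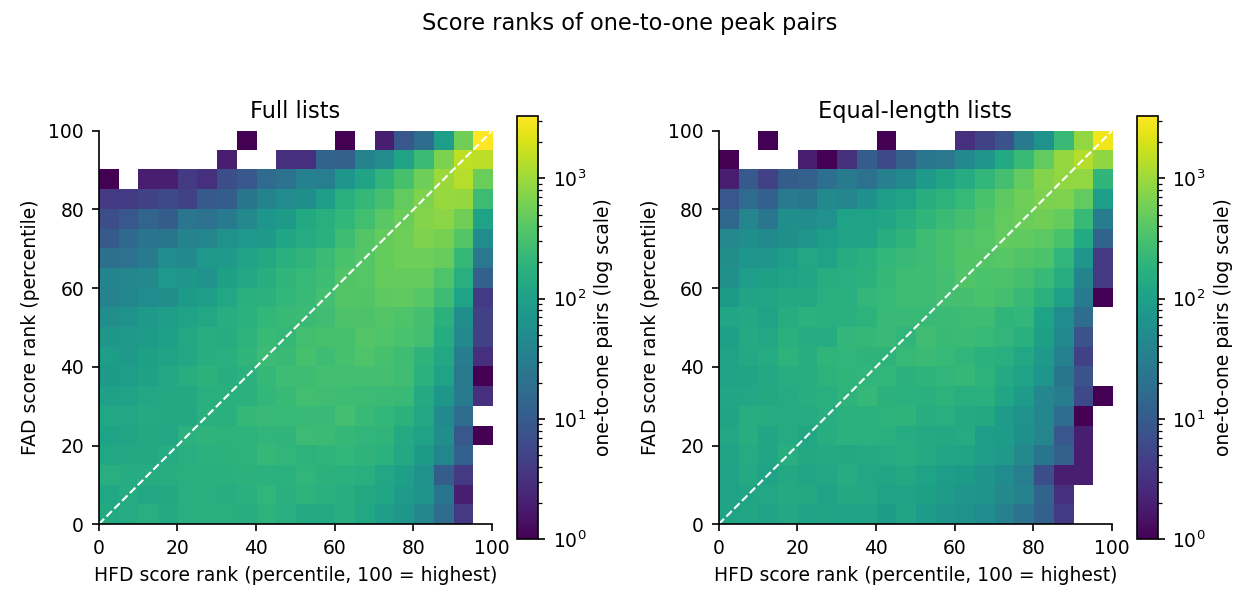
Score rank in FAD (y, percentile) against score rank in HFD (x, percentile) for one-to-one pairs, 72901 in full lists and 62890 in equal-length lists; colour gives the number of pairs per square of 5 by 5 points on a log scale, and the dashed line marks equal ranks. Pairs fall below the line in the full lists (median difference -6.38 points) and lie around it in equal-length lists (0.103 points).

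Rank differences leaned by position. In equal-length lists, pairs between genes had a median FAD minus HFD difference of 0.957 points (29.6% higher, 24.9% lower, n = 31810 pairs). Pairs within gene records had -0.950 points (26.7% higher, 30.5% lower, n = 29625) and pairs at gene ends -1.14 points (26.7% higher, 30.2% lower, n = 1455). The lean was small beside the scatter of 22.6 points, and ND against HFD had the same signs, with medians of 1.37, -0.879 and -1.27 points. Between FAD and ND the medians were nearer to 0, at -0.203, -0.111 and 0.153 points. ND ranks were read in the pairs that also met an equal-length ND peak. These were 14323 of the 17740 pairs where FAD ranked higher by 10 points and 14371 of the 17391 where it ranked lower. In the former the median ranks were 68.3 in FAD, 39.3 in HFD and 58.4 in ND, and in the latter 39.2, 68.2 and 58.0. ND thus lay above the middle in both sets, but pairs without an ND peak are left out of these medians.

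The gene-end pairs whose FAD peak ranked furthest above the HFD peak were at genes of varied roles. Csf1, which encodes macrophage colony-stimulating factor, had a FAD peak scoring 178, an HFD peak scoring 82.2 and an ND peak scoring 95.1, with ranks of 80.7, 9.95 and 43.9 in equal-length lists. Itgam, the gene of the integrin subunit CD11b, scored 130 in FAD, 74.9 in HFD and 85.3 in ND, with ranks of 67.3, 0.417 and 36.2. For both genes FAD was the highest and HFD the lowest of the 3 libraries. Peak widths were similar at Itgam (557, 523 and 549 bp), while at Csf1 the HFD peak was the widest (500, 676 and 446 bp). Crebzf, a bZIP transcription factor gene, had the widest gap, with scores of 267, 75.9 and 123 and ranks of 91.2, 1.79 and 59.3. Its FAD peak was both higher and narrower than the others, at 176 bp against 465 bp in HFD and 339 bp in ND. Slc7a7, an amino acid transporter gene, scored 137 over 240 bp in FAD, 74.9 over 729 bp in HFD and 111 over 328 bp in ND. The ubiquitin ligase gene Rnf122, Pcyox1l and the olfactory receptor genes Olfr605 and Olfr376 completed the 8. All 8 HFD peaks scored between 74.9 and 84.6, just above the score of 74.5 at which the equal-length HFD list ends. In the full HFD list they ranked between 30.8 and 39.9, so the size of these gaps depends on the list length while their sign does not.

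In the opposite direction the FAD peak was at the bottom of its list. Polr3a, which encodes the largest subunit of RNA polymerase III, scored 50.9 over 405 bp in FAD, 255 over 1246 bp in HFD and 226 over 809 bp in ND, with equal-length ranks of 0.703, 82.1 and 84.4. Aldoart2, a testis-specific aldolase gene, scored 50.8, 222 and 173. Slc16a11, a monocarboxylate transporter gene, scored 53.0, 165 and 164. In these 3 genes ND stood with HFD, and FAD alone was low. Myh13, a muscle myosin gene, scored 53.3 in FAD, 170 in HFD and 69.5 in ND. Rtp4, a receptor transporter gene, scored 53.4, 180 and 70.6. Here ND stood nearer to FAD. Oplah and Ppil2 had ND ranks between the others (scores of 54.5, 219 and 96.2, and 59.2, 225 and 134 in FAD, HFD and ND). Gnb3, a G protein subunit gene, scored 54.0 in FAD and 236 in HFD, with no ND peak overlapping.

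**Figure D5:**
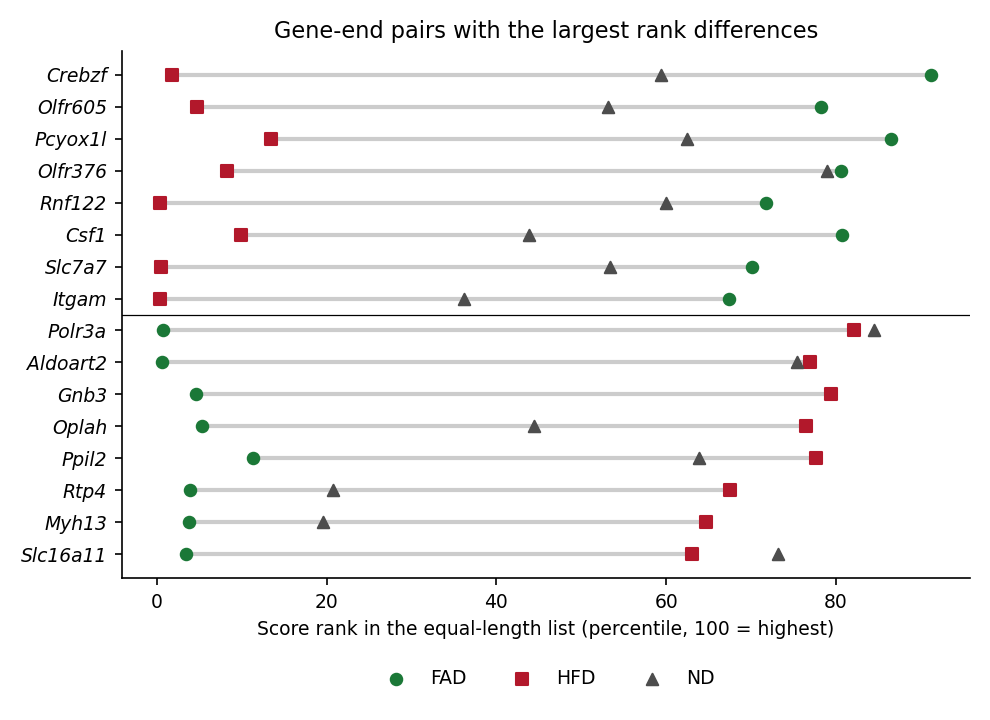
Score rank (percentile in equal-length lists) of FAD, HFD and ND at the 8 gene ends with the widest rank gaps in each direction; each row is 1 gene and the grey bar joins FAD and HFD. FAD lies at 67.3 to 91.2 in the upper genes and at 0.635 to 11.4 in the lower ones, and Gnb3 has no ND peak.

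Peaks without a partner were weak and narrow in both libraries. The 13546 unpaired FAD peaks had a median width of 403 bp and a median rank of 19.7, against 455 bp and 56.7 for paired ones, and 3 of them lay in the highest decile of the FAD list. The 54673 unpaired HFD peaks had a median width of 523 bp and rank of 28.0, against 647 bp and 69.2, and 25 lay in the highest decile. Their median distances to the nearest peak of the other list were 4106 and 8033 bp. ND peaks overlapped 27.0% of unpaired FAD peaks (exact 95% interval 26.3 to 27.8%) and 31.8% of unpaired HFD peaks (31.4 to 32.2%), against 82.4% and 82.6% of paired ones. In equal-length lists 23766 FAD and 25262 HFD peaks were unpaired, and 10220 of those FAD peaks (43.0%) met an HFD peak below the score at which its list was cut.

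Unpaired peaks of the 2 libraries differed in where they lay. In equal-length lists 53.5% of unpaired FAD peaks (exact 95% interval 52.9 to 54.2%) and 46.4% of unpaired HFD peaks (45.8 to 47.0%) lay between genes. Gene records held 44.3% (43.7 to 44.9%) and 50.9% (50.3 to 51.5%), and gene ends 2.18% (1.99 to 2.37%) and 2.74% (2.54 to 2.94%). Unpaired ND and HFD peaks compared with each other differed in the same direction and by less, with 50.9% and 47.5% between genes. All peaks of the FAD list lay between genes in 51.7% and those of the equal-length HFD list in 49.6%. Counted in 1 Mb bins, FAD had 6098 and HFD 5513 equal-length peaks in the 269 bins without a protein-coding gene, a ratio of 1.11 (exact 95% interval 1.07 to 1.15), and the ratio was 0.983 to 1.03 in the other gene-density classes. ND over HFD was 1.04 in the gene-free bins.

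Around gene starts both libraries were depleted, and unpaired peaks more so. A start here is the outermost 5′ end of a gene record of known strand, so starts inside a record are left out. Paired FAD peak midpoints within 250 bp of a start were 0.787 times as dense as those at 2000 to 5000 bp, and paired HFD ones 0.772 times. The ratio was 0.352 for unpaired FAD peaks (33 midpoints near a start) and 0.482 for unpaired HFD peaks (57). Over whole equal-length lists the 3 libraries gave 0.679 for FAD, 0.685 for HFD and 0.683 for ND.

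The strongest unpaired gene-end peaks were higher in their list for HFD than for FAD. After Slc12a3, HFD peaks with no FAD peak within 5000 bp included those of Sag, the gene of retinal arrestin (score 267, 310 bp), Depdc1b (243, 1016 bp), Naaladl2 (235, 354 bp), Tmem225 (235, 346 bp) and 1 peak shared by the windows of Nelfb and Fam166a (222, 937 bp). The lowest of these HFD peaks ranked at 76.9 in the equal-length list. All 6 regions had an ND peak, with scores from 81.2 at Sag to 227 at Naaladl2, so none of these regions was marked in HFD alone. On the FAD side Morf4l1b (143, 518 bp), Lias, which encodes lipoic acid synthetase (134, 453 bp), the mitochondrial ribosomal gene Mrpl9 (131, 275 bp), the AAA ATPase gene Vcp (131, 229 bp), Olfr1057 (120, 223 bp), the zinc finger gene Zbtb16 (114, 325 bp) and Ube2v2 (104, 389 bp) were among the strongest, with ranks from 55.0 to 72.2. Of these 7, Morf4l1b, Lias and Ube2v2 had an ND peak as well, with scores of 72.4, 94.3 and 71.5.

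A few regions were 1 wide peak in 1 library and several peaks in the other. Of HFD peaks, 1783 spanned 2 or more FAD peaks and 22 spanned 3, while 419 FAD peaks spanned 2 HFD peaks and 0 spanned 3. The widest of the 22 lay inside the gene record of Nipal3, a magnesium transporter family gene, where 1 HFD peak of 3058 bp stood over 3 FAD and 2 ND peaks. The record of Cspg4, the gene of the pericyte proteoglycan NG2, held 1 HFD peak of 3041 bp over 3 FAD and 2 ND peaks. That of Klhl17 held 1 of 2762 bp over 3 FAD and 2 ND peaks. In the reverse direction the widest FAD peak over 2 HFD peaks spanned 3089 bp and met no protein-coding gene record.

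Across 20665 autosomal protein-coding genes, 2395 had a FAD and 3808 an HFD gene-end peak in the full lists. FAD marked and HFD did not mark 276 genes (1.34%), and HFD marked and FAD did not mark 1689 (8.17%), of which 622 had an ND peak. At 14 of the 276 (5.07%) and 151 of the 1689 (8.94%) the pair of libraries still overlapped there, outside the window. In equal-length lists the counts were 537 (2.6%) and 920 (4.45%), and HFD marked 2778 genes. An overlap of 1 bp with the window marked a gene, so the wider HFD peaks could mark more genes at equal length too. With every peak set to 500 bp the full lists gave 340 in FAD only and 1575 in HFD only. Equal length and equal width were not combined for these counts.

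Gene lists of fat biology were marked at few members in either library, so their counts are small. Of 41 adipogenesis and adipokine genes, equal-length lists had 1 in FAD only (Lep) and 4 in HFD only: the adiponectin receptor gene Adipor2, the lipid droplet gene Plin1, the resistin gene Retn and the lipogenic factor gene Srebf1. Of 28 adipocyte markers, a list that shares members with the first, 1 was in FAD only and 4 in HFD only. The thermogenic and mitochondrial list of 37 genes had 0 in FAD only and 4 in HFD only, namely Ucp1, the uncoupling protein of brown fat, the β3-adrenergic receptor gene Adrb3, Cox7a1 and Esrrb. Of 54 lipid genes, 1 was in FAD only (Mlxipl, which encodes ChREBP) and 3 in HFD only, Lpl, Mogat2 and Scd2. Of 50 insulin signalling genes 0 were in either class. HFD-only members outnumbered FAD-only members in 4 of these 5 lists, as they did among all genes (4.45% in HFD only and 2.6% in FAD only). The adipocyte markers added no gene of their own here, since Lep, Adrb3, Lpl, Plin1 and Retn are counted in the other lists. In the full lists the FAD-only and HFD-only counts were 1 and 5 for adipogenesis, 1 and 4 for adipocyte markers, 0 and 4 for thermogenic, 1 and 5 for lipid and 0 and 4 for insulin signalling genes. At the few gene-end pairs in these lists FAD ranked above HFD more often than below. Klf5, a transcription factor gene of early adipogenesis whose strand was unknown here, scored 139 in FAD, 83.4 in HFD and 63.6 in ND. Dlk1, the imprinted gene of the preadipocyte factor Pref-1, scored 118, 92.4 and 54.2. The lipid droplet gene Pnpla3 scored 149, 120 and 71.3. In these 3 genes FAD had the highest full-list rank of the libraries, with equal-length rank gaps over HFD of 59.5, 40.5 and 31.4 points. In the full lists the gaps were smaller, with FAD and HFD ranks of 70.7 and 38.3, 62.3 and 45.6, and 73.8 and 60.0. Cox4i1, a subunit gene of cytochrome c oxidase, was lower in FAD, with scores of 54.2, 97.1 and 50.6, and Mrap had a difference of -13.3 points. All gene-end pairs in the adipogenesis list numbered 4, with 3 higher and 0 lower in FAD by 10 points, against 465 higher and 553 lower among 1817 pairs of all genes. Over the whole gene records the same list leaned the other way, with 19 of 112 pairs higher, 39 lower and a median of -3.38 points, beside 26.7% higher, 30.5% lower and a median of -0.949 over the 31830 pairs in all gene records.

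Genes that use or lay down methyl groups showed no shared direction. At equal length 2.6% of all genes were in FAD only and 4.45% in HFD only. Of 59 one-carbon genes, equal-length lists had 2 in FAD only, the methionine synthase gene Mtr and Mat2b, and 3 in HFD only, Amt and the folate carriers Folr1 and Slc46a1, while the full lists had 1 (Mtr) and 6. Of the 4 gene-end pairs, Mmab (scores of 88.2 in FAD and 92.4 in HFD, no ND peak) was higher in FAD by 10 points of rank. Gnmt, the glycine N-methyltransferase gene, differed by 4.68 points and Mthfd2l by -2.63. Over the 100 pairs in one-carbon gene records 31 were higher and 27 lower in FAD, with a median of 2.39 points. The shares in all gene records were 26.7% higher and 30.5% lower. Among 32 DNA methylation and demethylation genes, 2 were in FAD only and 3 in HFD only (Dnmt3l, Mbd1 and Mbd2), and the full lists had 0 and 5. Dnmt1, the maintenance methyltransferase gene, scored 125 in FAD, 271 in HFD and 160 in ND. Ehmt1, a histone methyltransferase gene, scored 83.6, 198 and 127, over 332, 1493 and 811 bp. Both ranked lower in FAD, with FAD minus HFD differences of -18.6 and -32.5 points, while that of Apobec2 was 34.5 points. Over 48 pairs in records of this list 12 were higher and 16 lower.

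Imprinted genes had more gene-end pairs lower in FAD than higher. Of 13 such pairs in equal-length lists 7 were lower by 10 points and 2 higher, with a median of -18.1 points. Of the 1817 pairs of all genes 553 were lower and 465 higher, with a median of -1.38 points. Kcnq1, the potassium channel gene of an imprinted cluster, scored 55.8 in FAD, 149 in HFD and 95.7 in ND, and Peg3 is described above. Those that ranked higher were Dlk1 and Plagl1, by 40.5 and 19.0 points at equal length, while in the full lists Plagl1 ranked at 46.4 in FAD and 49.6 in HFD. In the records of imprinted genes 28 of 124 pairs were higher and 49 lower, with a median of -4.82 points. All gene records had 26.7% of pairs higher and 30.5% lower, with a median of -0.949 points. The window covers 1 start, the outermost of the gene record. There equal-length lists had Blcap and Mest in FAD only and 4 members in HFD only, among them Cdkn1c and Gnas, beside 2.6% and 4.45% of all genes. The full lists had 1 (Blcap) and 5. At that Mest start an HFD peak scoring 67.1, under the equal-length limit of 74.5, covered all 300 bp of the promoter. FAD peaks covered 115 bp of it. Mest and Gnas each have another start inside the record whose promoter was covered over all 300 bp in FAD, HFD and ND. Germline genes had 2 of 27 gene-end pairs higher and 6 lower, with a median of -4.50 points. Piwil4 and the carnitine transporter gene Slc22a16 (scores of 65.6 in FAD and 142 in HFD, no ND peak) were the lowest, and the meiotic factor gene Sohlh1 (142, 148 and 83.4 in FAD, HFD and ND) and the transition protein gene Tnp1 (103, 110 and 67.3) the highest. The germline list had the highest share of marked genes of all lists, 31 of 56 in FAD and 32 in HFD, and 30 of them were marked in both. Among all genes 11.6% were marked in FAD and 13.4% in HFD.

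Among all genes 2.6% were in FAD only and 4.45% in HFD only at equal length. Of 56 inflammation genes, equal-length lists had 4 in FAD only (Ccl2, Ccl4, Il1r1 and Nfkb1) and 4 in HFD only (Cxcl12, Cxcl5, Nlrp3 and Rela). The full lists had 1 (Il1r1) and 6, since Ccl2, Ccl4 and Nfkb1 have HFD peaks that score below the equal-length limit. In inflammation gene records 13 of 42 pairs were higher in FAD and 18 lower, beside 26.7% and 30.5% in all gene records. Ccl5 scored 91.7 in FAD and 90.1 in HFD with no ND peak. Mrc1, the mannose receptor gene of resident macrophages, scored 97.8 in FAD, 239 in HFD and 68.2 in ND. Its full-list ranks were 50.6, 86.0 and 23.0, so that HFD was the highest. The cAMP list had Pde4d in FAD only and Gnas, Pde7a and Rapgef4 in HFD only, and 2 of its 6 gene-end pairs were lower and 1 higher. Pde7b was the lowest, with scores of 104 in FAD, 230 in HFD and 179 in ND, and Adra2a the highest, with 167, 160 and 99.6. The extracellular matrix list had Col8a1, Eln and Timp2 in FAD only and Adamts5, Fbn1, Mmp19 and Tgfb3 in HFD only. The full lists had 1 and 4 for cAMP and 2 and 7 for extracellular matrix genes. Of 156 pairs in extracellular matrix gene records 29 were higher in FAD and 56 lower, with a median of -3.18 points. Over all gene records the median was -0.949 points. The 50 ribosomal protein genes, set beside as housekeeping genes, had 2 in FAD only and 5 in HFD only, and 0 and 9 in the full lists.

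Marker genes of the cell types that whole fat could hold were marked as follows in equal-length lists. Among all genes at that length, 11.6% were marked in FAD and 13.4% in HFD, 2.6% in FAD only and 4.45% in HFD only. Of 42 leukocyte markers 10 were marked in FAD and 10 in HFD, 2 in FAD only (Cpa3 and Csf1r) and 2 in HFD only (Cd8a and Runx3). Of 26 endothelial markers 4 and 1 were marked, and Plvap, Ramp2 and Vwf were in FAD only. Of 26 mesothelial and fibroblast markers 7 and 4 were marked, and Clec3b, Mfap5 and Wt1 were in FAD only. Equal-length lists had 0 members of either list in HFD only. The full lists had 2 endothelial markers in FAD only (Ramp2 and Vwf) and 3 in HFD only (Esam, Mmrn2 and Nos3), 2 mesothelial and fibroblast markers in FAD only and 1, Cspg4, in HFD only, and 1 leukocyte marker in FAD only and 3 in HFD only. The endothelial list had 1 gene-end pair, at the endothelial cadherin gene Cdh5, and FAD ranked above HFD there (scores of 169, 113 and 123 in FAD, HFD and ND). Over the records of endothelial markers the pairs leaned the other way, with 16 of 71 higher in FAD, 29 lower and a median of -5.57 points. Pairs in all gene records were higher in 26.7% and lower in 30.5%, with a median of -0.949 points. FAD also ranked above HFD at the keratin gene Krt8 (110, 77.7 and 106) and Ly6a (85.3, 79.9 and 62.4). In records of mesothelial and fibroblast markers 8 of 28 pairs were higher and 6 lower. Of 38 epididymal markers 3 were marked in FAD and 5 in HFD. The share of these markers' methylation that reflects the mix of cells was not tested.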

How the data were processed

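MeDIP-seq peak lists of FAD, HFD and ND, 1 library each, were used as deposited, and the submitters' processing notes name build mm10. Groups came from the labels. Each peak carries a score given by the authors, at least 50 in each list, whose scale is not stated. Comparisons over pairs therefore use its rank within a list. Raw scores are printed for named peaks, but with no stated scale or depth they cannot be compared directly between libraries. Start and end positions were read as deposited, with starts counted from 0 in the files. The peak caller's version and settings, the aligner, duplicate handling and read depth were not given in the sources used here. The depth behind a peak is unknown.

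The authors called peaks per library, so a missing peak is one below the threshold of that library's own call. Ranks are percentiles with ties averaged. Gene positions came from RefSeq (GRCm38.p6), where promoter entries gave the strand of 16457 of 20665 autosomal protein-coding genes, and both ends were used for the other 4208. The 17 gene lists matched 720 of 739 symbols. Members, lists and naming rules were chosen with earlier results of these data known. Genes were named as the 8 with the largest rank difference, width ratio or unpaired score in each direction, up to 2 per list and direction, and the 5 widest split peaks, passing over Gm and Rik symbols, and a few genes that these rules name are not reported here; genes given as in 1 library only by list, and Lep's promoter, were named after their values were seen. Exact binomial 95% intervals, and order-statistic intervals for medians, cover counting error only. Intervals for ratios of FAD to HFD counts treat the 2 counts as independent. Overlaps were checked against bedtools 2.31.1 for all 90352 FAD and 130093 HFD peaks and tested on simulated data. The scripts ran in Python 3.11.15 with scipy 1.17.1, pandas 2.3.3, numpy 2.4.6 and matplotlib 3.10.9. The alternatives were equal-length lists, the 50% of peaks with the highest scores, a reciprocal overlap of 50%, joining within 500 bp, X and Y added, ranks among pairs and a window of 1000 bp; genes of known strand only, and peaks set to 500 bp, were added after the data were seen.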

Additional observations from a re-analysis of the deposited data

Results flagged for a closer look

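The X and Y chromosomes were outside the comparison of the autosomes and carried peaks in each library. FAD had 2875 peaks on X and 2274 on Y, and HFD had 3152 on X and 1879 on Y. The FAD over HFD ratio of peak numbers was 0.912 on X and 1.21 on Y, beside 0.695 on the autosomes. On Y the FAD list was thus the longer one. ND had 3160 peaks on X and 2309 on Y, close to HFD on X and to FAD on Y. Of FAD peaks 80.8% on X and 67.3% on Y met an HFD peak, and of HFD peaks 71.3% and 79.8% met a FAD peak. FAD peaks were narrower here as well, with a median width ratio in one-to-one pairs of 0.814 over 2101 pairs on X and 0.843 over 1457 pairs on Y. The cause of these differences was not tested.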

How the results depend on the processing

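No paired analysis was possible because each diet has 1 library. The FAD over HFD width ratio stayed below 1 under each alternative that gave one. Most of these keep the deposited peak widths, so the ratio could move little. HFD-only genes outnumbered FAD-only genes under each alternative run for them, but none evened list length and peak width together. With equal-length lists 73.7% of FAD peaks met an HFD peak and 72.0% the reverse, the width ratio was 0.748, 28.2% of pairs were higher and 27.7% lower in FAD, 537 genes were in FAD only and 920 in HFD only, and 2.74% of unpaired HFD peaks lay at gene ends. With the 50% of peaks that scored highest, the overlap shares were 85.7% and 58.7%, the width ratio 0.760, the share lower in FAD 43.6%, and the gene counts 162 and 944. With a reciprocal overlap of 50% the shares were 70.1% and 48.7%, the ratio 0.785 and the share higher in FAD 14.6%. With peaks within 500 bp joined, 58.8% of HFD peaks were paired and 15.4% of pairs were higher in FAD. With X and Y the overlap shares were 84.5% and 58.6%, the ratio 0.749, and 16.2% of pairs were higher and 41.9% lower. Ranked among the pairs alone, 29.0% were higher and 28.5% lower. With every peak set to 500 bp the overlap shares were 83.5% and 57.5%. With genes of known strand only, 1120 genes were in HFD only, fewer genes being counted. With a window of 1000 bp, 1.81% of unpaired HFD peaks lay at gene ends, the window being smaller. Other causes were not tested. The direction of rank differences in the full lists, 15.8% higher and 42.6% lower, did not hold at equal length or among the pairs, where ranks are centred by construction. Read depth is unknown, so a peak missing from the shorter FAD list may lie under the caller's threshold, and 1 library per diet allows no error between animals.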
